A study of Mus musculus with 22 samples.

Results

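The EGF family ligands Areg, Tgfa, Egf, Hbegf, Btc and Nrg1 and the ErbB receptors Egfr, Erbb2, Erbb3 and Erbb4 are 10 of the 33984 genes counted in adult mouse choroid plexus (ChP). They were chosen by name, as ligands and receptors of the pathway, with earlier results of these data known. All 10 had at least 1 count in some pool. The ligand genes Ereg, Epgn, Nrg2, Nrg3 and Nrg4 are not members and were listed with the pathway genes below. The RNA came from 14 pools in 7 groups of 2 pools, called A and B. In the conditional model (strain S129), 3-month-old Otx2lox/lox mice received Cre-Tat, a cell-permeable Cre recombinase, or vehicle by injection into the lateral ventricles, and ChP was taken 15 days later from the lateral ventricles (LV) and the fourth ventricle (4V) separately. All 4 of these groups carried the lox alleles, and each pool held 5 mice labelled Cre-Tat or 4 mice labelled vehicle. In the constitutive model (strain B6D2), 4V ChP was pooled from 3-month-old wildtype mice, from mice labelled Otx2+/-, which the study names Otx2+/GFP, and from mice labelled Otx2+/AA, whose age is not given in the sources used here. The conditional knockdown depends on Cre-Tat reaching the ChP from the ventricle, whereas the constitutive alleles are present in the whole animal throughout life. Strain and sequencing run changed together with the model, so these cannot be told apart.

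EGF family ligands are made as membrane-anchored precursors and are released by metalloproteases such as ADAM17, after which they bind ErbB receptors on the same or neighbouring cells. TGF-alpha, EGF and amphiregulin bind EGFR, HB-EGF and betacellulin bind EGFR and ERBB4, and the neuregulin NRG1 binds ERBB3 and ERBB4. ERBB2 has no known ligand of its own and signals as the partner of the other receptors, and ERBB3 has little kinase activity. Bound receptors pair and signal through intracellular kinase cascades. The ChP faces the cerebrospinal fluid, and TGF-alpha, amphiregulin and EGF are known to act on neural precursors next to the ventricle.

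The promoters of Tgfa, Egfr and Erbb4 are shown because the main ligand and the main receptors measured below differed between groups. Each window runs from 250 bases before to 50 bases after the RefSeq start (GRCm38.p6), 5′ to 3′ on the strand of the gene, and capitals mark GC boxes, GGGCGG on either strand.
Tgfa, chr6:86194972-86195271, plus strand: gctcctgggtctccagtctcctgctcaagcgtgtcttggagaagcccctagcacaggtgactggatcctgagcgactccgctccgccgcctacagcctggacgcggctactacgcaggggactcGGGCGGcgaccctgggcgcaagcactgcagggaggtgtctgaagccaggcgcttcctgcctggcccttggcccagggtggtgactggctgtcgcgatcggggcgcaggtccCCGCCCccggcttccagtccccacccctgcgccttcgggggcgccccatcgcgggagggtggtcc
Egfr, chr11:16751953-16752252, plus strand: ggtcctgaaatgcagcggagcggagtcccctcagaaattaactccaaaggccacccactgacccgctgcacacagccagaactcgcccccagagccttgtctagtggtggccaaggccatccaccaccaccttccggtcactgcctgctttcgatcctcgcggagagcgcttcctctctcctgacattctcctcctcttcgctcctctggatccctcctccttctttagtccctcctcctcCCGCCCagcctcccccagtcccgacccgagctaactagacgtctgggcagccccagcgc
Erbb4, chr1:69108010-69108309, minus strand: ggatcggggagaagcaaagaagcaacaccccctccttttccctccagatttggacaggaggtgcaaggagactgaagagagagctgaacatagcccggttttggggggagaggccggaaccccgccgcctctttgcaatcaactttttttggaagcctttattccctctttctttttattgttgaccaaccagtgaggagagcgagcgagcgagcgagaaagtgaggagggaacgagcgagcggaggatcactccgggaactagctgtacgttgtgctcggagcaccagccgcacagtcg
The Tgfa window held 2 GC boxes, the Egfr window held 1 and the Erbb4 window held 0, and 35.7% of the 32851 windows of all genes held at least 1. GC content was 70.7% for Tgfa, 62.3% for Egfr and 55.3% for Erbb4, beside a median of 52.7% over all windows. TAATCC, the core motif bound by OTX2, was searched on both strands and was in none of these windows, nor in those of Areg, Egf, Btc and Erbb2, while 7.06% of all windows held it. The TATA box TATAAA was in the window of Areg alone among the 7 members with a window, and 13.6% of all windows held it.

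Otx2, the targeted gene, was examined first as a check of the labels. Counted over the whole transcript, Otx2 was at 391 and 476 CPM (counts scaled to library size, with TMM factors over all pools) in the vehicle pools of LV ChP and at 1240 and 1020 CPM in the pools labelled Cre-Tat (log2 fold change 1.41 ± 0.18 SE, adjusted p = 0.00051, edgeR). In 4V ChP it was at 383 and 392 CPM with vehicle and at 1200 and 1210 CPM in the pools labelled Cre-Tat (1.64 ± 0.15, adjusted p = 1.2e-06, edgeR). It was at 362 and 303 CPM in wildtype, at 1030 and 884 CPM in the pools labelled Otx2+/- (1.53 ± 0.14, adjusted p = 0.0011, edgeR) and at 339 and 353 CPM in the pools labelled Otx2+/AA. The whole-transcript count therefore rose where the labels say knockdown. The study reported the opposite direction in both models, from the reads of an exon counted apart. It also describes a qPCR test of the conditional samples for lower expression of the gene. Counts of exon 2 alone were not analysed here. The knockdown could therefore not be checked here from the whole-transcript count, and the groups are called by their labels.

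Pool totals were 22750019 to 50088408 counts. In the conditional model, 14 of 16 files carried in their name a library number other than that of the sample to which they were attached, and they were assigned by this number. The 2 runs of a library differed by no more than sampling noise (chi-square per degree of freedom 0.9996 to 1.034), against 12.53 to 19.45 for the files attached to the same pool. Taken as attached, each pool would join a library labelled Cre-Tat with a library labelled vehicle, and the Cre-Tat values of Tgfa, Egfr and Nrg1 would change sign in both ventricles. Every one of the 8 epithelial markers had counts in every group, their summed level ran from 85400 to 231000 CPM, and no marker of neurons, glia, ependyma, fibroblasts, endothelium or macrophages was at 0 in a whole group. The summed epithelial level was 223000 to 231000 CPM in LV vehicle and 123000 to 162000 CPM in LV Cre-Tat, and 182000 to 214000 CPM in 4V vehicle and 85400 to 97400 CPM in 4V Cre-Tat. It was 187000 to 198000 CPM in wildtype, 125000 to 132000 CPM in Otx2+/- and 153000 to 154000 CPM in Otx2+/AA. Most of this sum is Ttr, the transthyretin gene, at 180000 and 188000 CPM in LV vehicle and 95400 and 133000 CPM in LV Cre-Tat, and at 148000 and 139000 CPM in wildtype and 76900 and 89700 CPM in Otx2+/-. Enpp2, the next in level, was at 43700 and 42200 CPM in wildtype and 42200 and 37000 CPM in Otx2+/-. Aqp1, a water channel gene, was lower in both pools of every group labelled as knockdown than in its controls, at 470 and 444 CPM against 270 and 307 CPM in LV, 477 and 374 CPM against 220 and 176 CPM in 4V, and 373 and 379 CPM in wildtype against 216 and 279 CPM in Otx2+/-. Ttr was lower in the same way, while whole-transcript Otx2 was higher. The Otx2+/AA pools also lay below wildtype for both genes, at 280 and 307 CPM for Aqp1 and at 110000 and 115000 CPM for Ttr. Of the 8 markers, 3 were called lower in LV Cre-Tat, 7 in 4V Cre-Tat, 2 in Otx2+/- and 0 in Otx2+/AA, and Otx2 was called higher in the first 3 of these. Their part in the results below was not tested.

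Per kb of transcript, Tgfa was the leading ligand and Erbb4 the leading receptor. Tgfa ran from 11.0 to 23.8 CPM per kb over the 14 pools with a median of 15.5, and Erbb4 from 7.61 to 19.0 with a median of 12.8. These neighbours were not separated, since Tgfa was the higher in 10 of 14 pools. Egfr followed at 1.72 to 7.09 CPM per kb and Erbb2 at 1.61 to 2.74, with Egfr the higher in 12 of 14 pools. Erbb4 was 2.68 to 7.21 times Egfr per kb and was the higher in 14 of 14 pools. Hbegf, Egf, Erbb3, Btc and Nrg1 had median levels of 0.78, 0.346, 0.315, 0.215 and 0.213 CPM per kb, and their pools overlapped. Areg, which encodes amphiregulin, gave 3 counts in all 14 pools together, 2 in LV Cre-Tat pool A and 1 in Otx2+/AA pool A, so it was never tested and no difference was detectable at this depth.

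**Figure D1:**
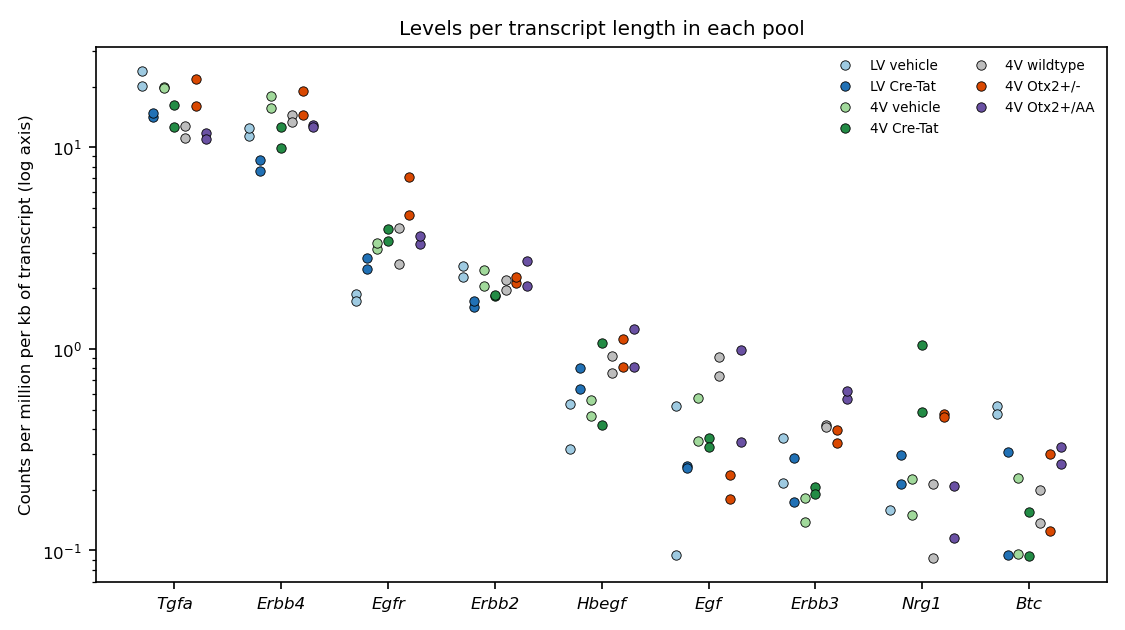
Level of each tested member in each of the 14 pools, in CPM per kb of the counted transcript on a log axis, coloured by group; Areg (3 counts in all) and the LV vehicle pool B of Nrg1 (0 counts) are not drawn. Tgfa and Erbb4 lay between 7.61 and 23.8, Egfr and Erbb2 between 1.61 and 7.09, and the others reached at most 1.26.

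The comparison of Cre-Tat with vehicle asks what the conditional change does 15 days after injection. In LV ChP, 9 members were tested and 0 were called at an adjusted p under 0.05, while 3.24% of the 15002 genes tested were called. At an unadjusted p under 0.05, 5 of these members passed, Tgfa, Btc, Egfr, Erbb2 and Erbb4, as did 14.2% of all genes tested, and DESeq2 called 2, Tgfa and Erbb4, beside 3.58% of all genes. In 4V ChP, 8 members were tested and 2 were called, Nrg1 higher and Erbb4 lower, beside 10.7% of 14550 genes. In the constitutive model, 1 of 9 members was called between Otx2+/- and wildtype, Egf lower, beside 3.53% of 14573 genes. Between Otx2+/AA and wildtype, 0 of 8 members were called by edgeR, 0 had an unadjusted p under 0.05 and DESeq2 called 0. Over all 14494 genes these shares were 0.345%, 8.91% and 0.842%. Between Otx2+/- and Otx2+/AA, 1 of 9 members was called, Tgfa higher in Otx2+/-, beside 2.7% of 14578 genes. The Otx2+/- and Otx2+/AA comparisons with wildtype share the wildtype pools. DESeq2 called 1 member in 4V Cre-Tat beside 7.9% of the genes it tested, 3 in Otx2+/- against wildtype beside 4.82% and 2 in Otx2+/- against Otx2+/AA beside 2.85%. With 2 pools a group, pools often fail to overlap. The groups did not overlap for 7 of 9 tested members in LV Cre-Tat, 6 of 8 in 4V Cre-Tat, 6 of 9 in Otx2+/- against wildtype, 3 of 8 in Otx2+/AA against wildtype and 6 of 9 in Otx2+/- against Otx2+/AA, where 42.9%, 50.4%, 49.1%, 38% and 44.3% of all genes tested did not overlap. A gap between the pools of a single member is therefore only a description of its values. The median log2 fold change of the tested members was -0.29 in LV Cre-Tat, -0.05 in 4V Cre-Tat, 0.27 in Otx2+/- and 0.14 in Otx2+/AA, beside medians between -0.01 and 0.01 over all genes tested. With 2 pools a group, an exact permutation test cannot go below p = 0.333, so the calls rest on the spread shared across genes by edgeR.

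Tgfa, the gene for TGF-alpha, lay lower in the pools labelled Cre-Tat than with vehicle and higher in Otx2+/- pools than in the other constitutive pools. The gene lies on chromosome 6 at 86195223 to 86275719 (GRCm38, plus strand), and its counted transcript has 6 exons and 4527 bases. In LV ChP it was at 91.1 and 108 CPM with vehicle and at 64.4 and 66.9 CPM in the pools labelled Cre-Tat. In 4V ChP it was at 90.3 and 88.5 CPM with vehicle and at 57.1 and 73.4 CPM in the pools labelled Cre-Tat. Both Cre-Tat groups lay below their vehicle pools. The log2 fold changes, -0.57 ± 0.16 (SE) in LV and -0.45 ± 0.14 in 4V, did not pass the threshold (adjusted p = 0.075 and 0.052, edgeR). Without a filter on low counts both passed (adjusted p = 0.028 and 0.033, edgeR). With DESeq2 the LV change passed (adjusted p = 0.023) and the 4V change did not (adjusted p = 0.089). With the pool letter as a replicate block only the 4V change passed (adjusted p = 0.12 in LV and 5.4e-05 in 4V, edgeR). That block raised the share of all genes called in 4V from 10.7% to 21.4%. Neither change passed with total counts in place of TMM (adjusted p = 0.23 and 0.24, edgeR). In the constitutive model Tgfa was at 50.2 and 57.8 CPM in wildtype, 99.3 and 73 CPM in Otx2+/-, and 53.5 and 49.6 CPM in Otx2+/AA. Both Otx2+/- pools lay above all 4 other pools of that model. Tgfa was higher in Otx2+/- than in Otx2+/AA by 0.74 ± 0.16 on the log2 scale (adjusted p = 0.032, edgeR). Without Otx2+/- pool A, the higher pool, the difference was 0.5 with an adjusted p = 0.24 in edgeR, and with sums over transcripts the call was lost (adjusted p = 0.072, edgeR). Against wildtype it was 0.67 ± 0.16 (adjusted p = 0.062, edgeR), and it was called with DESeq2 (adjusted p = 0.0077), with total counts in place of TMM (adjusted p = 0.036, edgeR) and with all groups of the run in 1 fit (adjusted p = 0.037, edgeR). Between Otx2+/AA and wildtype it was -0.07 ± 0.13 (adjusted p = 0.95, edgeR), which was 0.05 when libraries were scaled by total counts.

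The Tgfa changes in 4V ChP had opposite signs in the models, and this difference was tested. The change from wildtype to Otx2+/- minus the change from vehicle to Cre-Tat was 1.13 ± 0.23 on the log2 scale (adjusted p = 0.026, edgeR), and it was the member called among 9, beside 1.64% of the 15327 genes tested. DESeq2 called 2 members, Tgfa and Erbb4, beside 2.72% of genes. The adjusted p of Tgfa was above 0.05 when wildtype pool A (1.02, adjusted p = 0.11, edgeR), Cre-Tat pool A (0.96, adjusted p = 0.073, edgeR), Otx2+/- pool A (0.9, adjusted p = 0.08, edgeR), vehicle pool A (1.11, adjusted p = 0.12, edgeR) or vehicle pool B (1.15, adjusted p = 0.11, edgeR) was left out, and at 0.05 without wildtype pool B (1.24). It was 0.064 (edgeR) with sums over transcripts. The summed level of 5 fibroblast markers was 690 to 773 CPM in wildtype, 946 to 1060 CPM in Otx2+/- and 613 to 721 CPM in Otx2+/AA. It was 479 to 507 CPM in 4V vehicle and 427 to 473 CPM in 4V Cre-Tat. The 5 markers did not move together. In 4V Cre-Tat, Col1a2 was at 130 and 134 CPM against 39.1 and 50.9 CPM with vehicle and Pdgfra at 88.4 and 86.7 CPM against 214 and 227 CPM, and in Otx2+/- against wildtype 1 of 5 was called, higher. Their part in the Tgfa result was not tested. In these bulk pools, fewer cells of a type and less RNA per cell cannot be told apart.

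**Figure D2:**
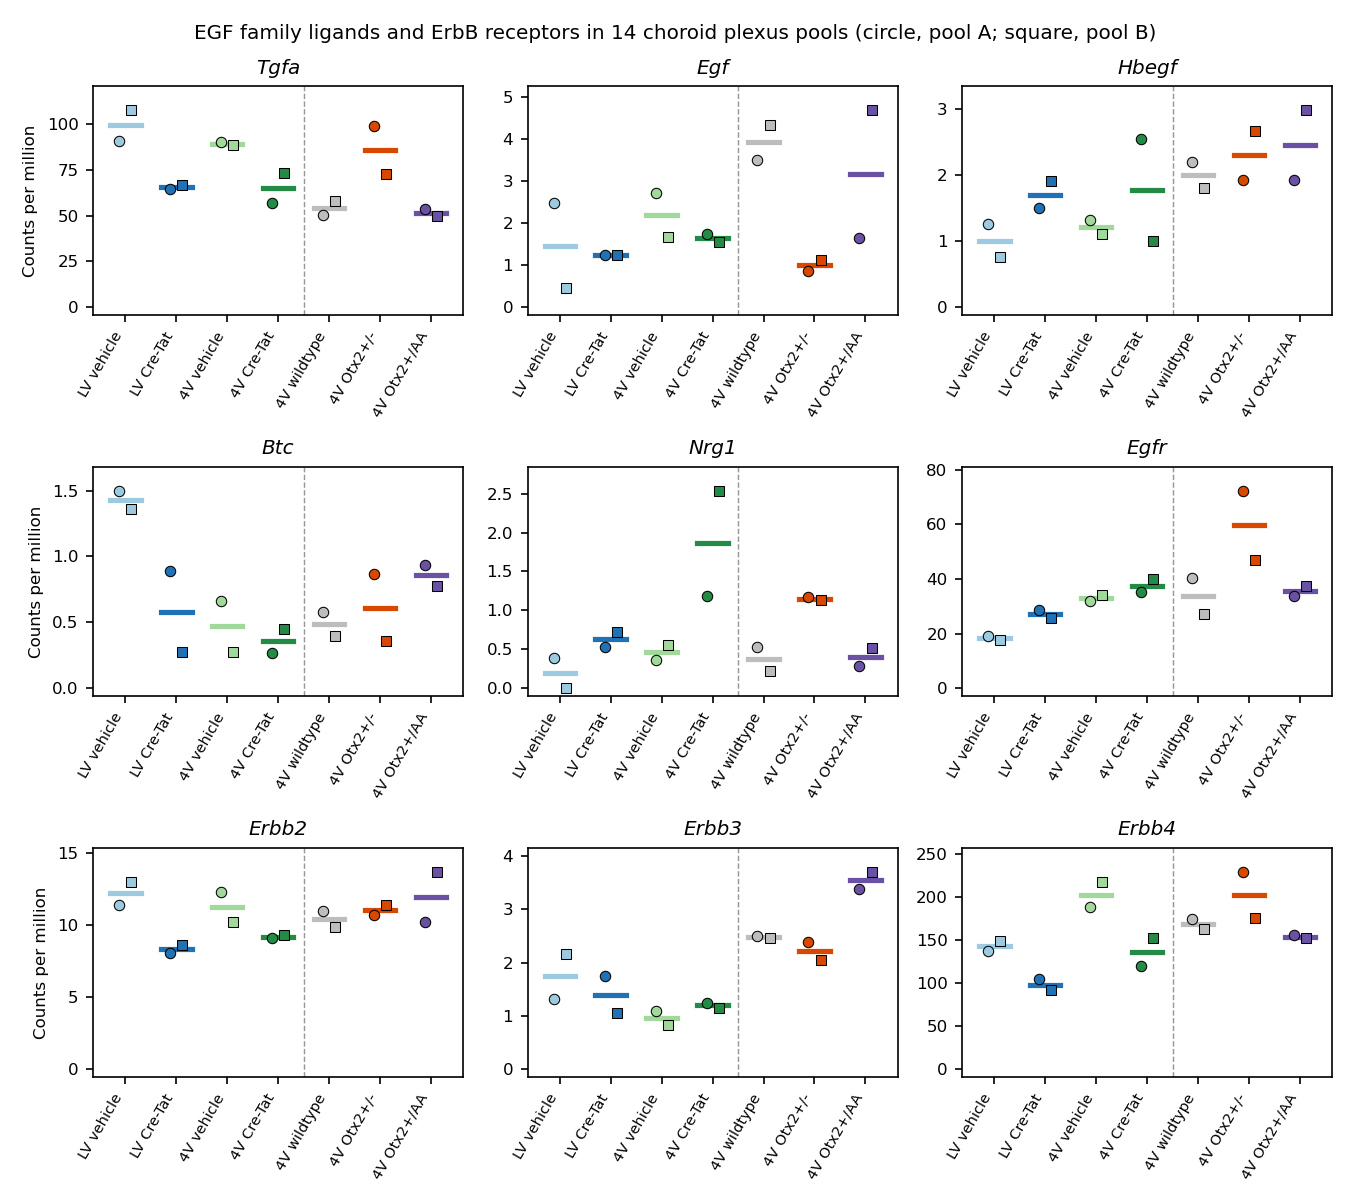
CPM of 9 members in the 14 pools, with a circle for pool A, a square for pool B and a bar at the mean of each group; the dashed line parts the conditional model (left) from the constitutive model (right). Tgfa lay at 57.1 to 73.4 CPM in the Cre-Tat pools and 88.5 to 108 CPM in the vehicle pools, and at 73 and 99.3 CPM in Otx2+/- against 50.2 and 57.8 CPM in wildtype.

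Nrg1, the neuregulin that binds ERBB3 and ERBB4, rose in 4V ChP labelled Cre-Tat from a very low level. It had 5 and 6 counts with vehicle and 22 and 51 counts with Cre-Tat, or 0.367 and 0.552 CPM against 1.19 and 2.54 CPM. The log2 fold change was 2.04 ± 0.55 (adjusted p = 0.022, edgeR). Nrg1 passed the filter on low counts through the Cre-Tat pools, and the call was lost without either of 2 pools. Without Cre-Tat pool B the change was 1.39 (adjusted p = 0.34, edgeR), and without vehicle pool A it was 1.77 (adjusted p = 0.12, edgeR). The call was also lost with DESeq2 (adjusted p = 0.078), with all groups of the run in 1 fit (adjusted p = 0.13, edgeR) and with sums over transcripts (adjusted p = 0.07, edgeR). In LV ChP it had 8 and 0 counts with vehicle and 13 and 16 with Cre-Tat, which gave 1.66 ± 0.94 on the log2 scale (adjusted p = 0.49, edgeR). In the constitutive model it was at 0.523 and 0.225 CPM in wildtype, 1.17 and 1.13 CPM in Otx2+/- and 0.281 and 0.516 CPM in Otx2+/AA. Both Otx2+/- pools were the highest of that model. The differences of 1.59 ± 0.53 from wildtype and 1.52 ± 0.51 from Otx2+/AA did not pass the threshold (adjusted p = 0.15 and 0.17, edgeR). Nrg1 also passed the filter on low counts through the Cre-Tat pools in LV and through the Otx2+/- pools here. Between Otx2+/AA and wildtype it was not tested. These higher values are therefore no separate support for the 4V rise. The counted transcript, Nrg1-201, spans 31817756 to 31918280 of a gene that runs from 31814551 to 32884029 on chromosome 8 (GRCm38, minus strand), so exons outside it were not measured here. In 4V ChP the summed level of 6 macrophage markers was 33.3 to 35.2 CPM with vehicle and 56.8 to 70.7 CPM with Cre-Tat. That of 5 ependymal markers was 101 to 125 and 207 to 210 CPM. The ependymal sum was mostly Foxj1, at 101 and 85 CPM with vehicle and 178 and 187 CPM with Cre-Tat. Of the 4 ependymal markers tested, 1 was called, higher. Their part in the Nrg1 result was not tested.

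Egf, the founding ligand of the family, fell in Otx2+/- pools. It had 67 and 77 counts in wildtype and 17 and 22 counts in Otx2+/-, which is 3.51 and 4.33 CPM against 0.864 and 1.13 CPM. The log2 fold change was -1.97 ± 0.32 (adjusted p = 0.012, edgeR), and it stayed past the threshold when any of the 4 pools was left out. Otx2+/AA pools held 1.64 and 4.7 CPM and were far apart, and the difference of Otx2+/- from them, -1.66 ± 0.47, did not pass the threshold (adjusted p = 0.1, edgeR). In the conditional model Egf was at 2.47 and 0.453 CPM in LV vehicle, 1.25 and 1.23 CPM in LV Cre-Tat, 2.72 and 1.66 CPM in 4V vehicle and 1.73 and 1.55 CPM in 4V Cre-Tat, with adjusted p of 0.95 and 0.58 (edgeR) for the Cre-Tat comparisons. The change in Otx2+/- minus that with Cre-Tat was -1.52 ± 0.49 (adjusted p = 0.17, edgeR). Egf lies on chromosome 3 at 129677565 to 129755316 (GRCm38, minus strand) and shares 1107 of the 4761 bases of its counted transcript with genes annotated on the opposite strand, 6330410L21Rik and Gm42697. No source used here gives the strand on which reads were counted, and reads of these genes may be included.

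Hbegf, which encodes the heparin-binding ligand, and Btc, which encodes betacellulin, were low and were called in none of the comparisons in which they were tested. Hbegf ran from 0.756 to 2.99 CPM over all pools, with group means from 1.01 ± 0.356 (SD, n = 2) in LV vehicle to 2.46 ± 0.756 in Otx2+/AA. Btc was at 1.5 and 1.36 CPM in LV vehicle, the highest group, at 0.89 and 0.273 CPM in LV Cre-Tat and at 0.661 and 0.276 CPM in 4V vehicle. The LV vehicle pools overlapped neither of these groups. The log2 fold change of Btc was -1.25 ± 0.57 for LV Cre-Tat against vehicle (unadjusted p = 0.046, adjusted p = 0.34, edgeR), and LV was above 4V in vehicle by 1.52 ± 0.56 (adjusted p = 0.12, edgeR). Btc had too few counts to be tested between 4V Cre-Tat and vehicle.

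Among the receptors, Erbb4, which binds neuregulins and betacellulin, fell in 4V ChP labelled Cre-Tat. It lies on chromosome 1 at 68032186 to 69108059 (GRCm38, minus strand), and the counted transcript has 27 exons. It was at 188 and 217 CPM with vehicle and at 120 and 152 CPM with Cre-Tat, so that the log2 fold change was -0.57 ± 0.15 (adjusted p = 0.016, edgeR). In LV ChP it was at 137 and 149 CPM with vehicle and at 104 and 91.7 CPM with Cre-Tat, so that the log2 fold change was -0.52 ± 0.16 (adjusted p = 0.1, edgeR). The Cre-Tat pools lay below the vehicle pools in both ventricles. In 4V ChP the call was lost without vehicle pool B (-0.47, adjusted p = 0.16, edgeR) or Cre-Tat pool A (-0.42, adjusted p = 0.098, edgeR), and with total counts in place of TMM (-0.43, adjusted p = 0.088, edgeR), a scaling that brought the median of all genes to 0.147. Of the 8 epithelial markers, 7 were called lower and 1, Otx2 itself, higher in the same comparison. In the constitutive model Erbb4 was at 174 and 162 CPM in wildtype, 229 and 175 CPM in Otx2+/- and 155 and 152 CPM in Otx2+/AA. The Otx2+/- pools lay above the others, pool B by little, with log2 differences of 0.27 ± 0.14 from wildtype and 0.39 ± 0.16 from Otx2+/AA (adjusted p = 0.38 and 0.27, edgeR). Otx2+/AA differed from wildtype by -0.13 ± 0.13 (adjusted p = 0.86, edgeR). The change in Otx2+/- minus that with Cre-Tat was 0.85 ± 0.22 (adjusted p = 0.086, edgeR).

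Egfr, the receptor of TGF-alpha and EGF, had higher means in every group labelled as knockdown, without passing the threshold in the edgeR test that gives the calls. It lies on chromosome 11 at 16752203 to 16918158 (GRCm38, plus strand), and the counted transcript has 28 exons. In LV ChP it was at 19.1 and 17.6 CPM with vehicle and 28.8 and 25.6 CPM with Cre-Tat, so that the log2 fold change was 0.59 ± 0.17 (adjusted p = 0.078, edgeR). The LV change passed with all groups of the run in 1 fit (adjusted p = 0.039, edgeR) and with total counts in place of TMM (adjusted p = 0.045, edgeR). It did not pass with DESeq2 (adjusted p = 0.1), without a filter on low counts (adjusted p = 0.052, edgeR) or with the letter as a replicate block (adjusted p = 0.098, edgeR). In 4V ChP Egfr was at 32 and 34.1 CPM with vehicle and 35.1 and 40.1 CPM with Cre-Tat, so that the log2 fold change was 0.19 ± 0.14 (adjusted p = 0.47, edgeR). In the constitutive model it was at 40.4 and 27.1 CPM in wildtype, 72.4 and 47 CPM in Otx2+/- and 33.7 and 37.3 CPM in Otx2+/AA. Both Otx2+/- pools were above all 4 others but were far apart from each other. The log2 differences were 0.82 ± 0.23 from wildtype (adjusted p = 0.1, edgeR) and 0.74 ± 0.19 from Otx2+/AA (adjusted p = 0.059, edgeR). DESeq2 called both differences (adjusted p = 0.012 and 0.017). Otx2+/AA differed from wildtype by 0.07 ± 0.17 (adjusted p = 0.96, edgeR). The change in Otx2+/- minus that with Cre-Tat was 0.64 ± 0.29 (adjusted p = 0.38, edgeR). The summed fibroblast level given above was also higher in Otx2+/- pools, through Dcn, Lum and Col1a2 and not Pdgfra, which was at 168 and 155 CPM against 186 and 189 CPM in wildtype, and its part was not tested.

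Erbb2, the co-receptor without a ligand, was at 8.05 to 13.7 CPM over all pools. In LV ChP it was at 11.4 and 13 CPM with vehicle and at 8.05 and 8.64 CPM with Cre-Tat, so that the log2 fold change was -0.52 ± 0.19 (unadjusted p = 0.017, adjusted p = 0.2, edgeR). Erbb3, which binds neuregulins, was at 0.828 to 3.71 CPM. It was highest in Otx2+/AA, at 3.38 and 3.71 CPM, where the Otx2+/- pools held 2.39 and 2.05 CPM, a log2 difference of -0.68 ± 0.27 between Otx2+/- and Otx2+/AA (adjusted p = 0.27, edgeR). Neither gene was called in any comparison.

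**Figure D3:**
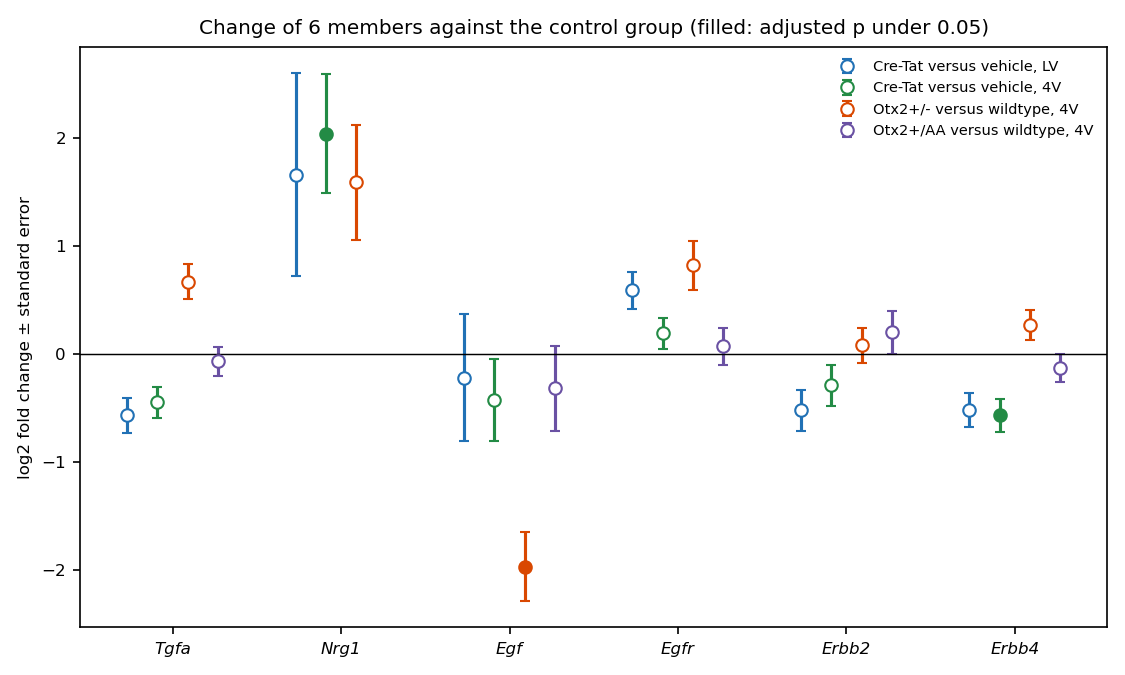
The log2 fold change with its standard error for 6 members in the 4 comparisons with a control group, from edgeR; filled points have an adjusted p under 0.05, and Nrg1 was not tested between Otx2+/AA and wildtype. Tgfa and Erbb4 lay below 0 for Cre-Tat in both ventricles (-0.57 and -0.45, -0.52 and -0.57) and above 0 for Otx2+/- (0.67 and 0.27).

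The comparison of ventricles asks whether the LV and 4V ChP differ without Cre-Tat. Both came from the same injected mice, but the pools were fitted as independent, so the errors ignore this sharing. With vehicle, 8 members were tested and 2 were called, both receptors and both lower in LV, beside 7.44% of 14561 genes. DESeq2 also called 2 beside 5.38% of genes, and the groups did not overlap for 5 of 8 members beside 54.3% of genes. Egfr was lower in LV by 0.88 on the log2 scale (-0.88 ± 0.14, adjusted p = 0.0017, edgeR), at 19.1 and 17.6 CPM against 32 and 34.1 CPM. Erbb4 was lower in LV as well (-0.53 ± 0.12, adjusted p = 0.018, edgeR). The Egfr call held when any of the 4 pools was left out, and that of Erbb4 was lost without 4V vehicle pool B (-0.43, adjusted p = 0.17, edgeR). Tgfa differed by 0.12 ± 0.12 (adjusted p = 0.6, edgeR), with a 95% interval of -0.14 to 0.38, and took the opposite sign when libraries were scaled by total counts. The summed endothelial markers were 138 to 165 CPM in LV and 86.2 to 100 CPM in 4V with vehicle, and fibroblast markers 586 to 618 and 479 to 507 CPM. Their part was not tested.

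Whether Cre-Tat changed a member differently in LV and 4V was tested with the interaction, coded as the 4V change minus the LV change. Here too the errors and intervals ignore that LV and 4V came from the same mice. In edgeR, 0 of 9 members were called, 0 had an unadjusted p under 0.05 and DESeq2 called 0. Over all 15565 genes these shares were 0.00642%, 2.67% and 0.0321%. The interaction was 0.12 ± 0.22 for Tgfa, 0.38 ± 1.25 for Nrg1, -0.4 ± 0.21 for Egfr and -0.05 ± 0.22 for Erbb4. The 95% intervals, -0.34 to 0.59 for Tgfa and -0.51 to 0.42 for Erbb4, leave room for unequal changes, and that of Nrg1 ran from -2.28 to 3.04.

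For Egfr and Erbb4, 5 transcripts each were counted, and the transcripts of a gene share most of their reads. Egfr-201 held the most counts of Egfr, 9311 over all pools, and Erbb4-202 those of Erbb4, 40896. On totals without further scaling, LV Cre-Tat over vehicle was 1.69 for Egfr-201 and 1.76 to 2.58 for the other Egfr transcripts. The same ratio in Otx2+/- over wildtype was 1.82 for Egfr-201 and 1.53 to 2.44 for the others. For Erbb4 the ratio of 4V Cre-Tat over vehicle was 0.742 for Erbb4-202 and 0.608 to 0.756 for the others. In these comparisons every other transcript lay on the same side of 1 as the one with the most counts.

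Around the members, 46 other genes of the pathway were listed by role, of which 39 or 40 were tested in each comparison. All 17 adaptors and signalling genes, such as Grb2 and Gab1, and all 5 genes of ligand shedding, such as Adam17, were tested, and none of these 22 genes was called in any comparison; the lowest and highest group mean of Adam17 were 58.6 and 87.9 CPM. In LV Cre-Tat, 2 of 39 genes were called, beside 3.24% of all genes. Both were higher and both encode immediate early transcription factors, Fos (2.42 on the log2 scale) and Egr1 (2.37). Etv4, Etv5, Ccnd1 and Phlda1, listed with them as targets of the pathway, were tested and not called in either Cre-Tat comparison. In 4V Cre-Tat, 4 of 39 were called, a share close to the 10.7% of all genes. Fos (1.99), Egr1 (1.95) and Rnf41 (0.45), a ubiquitin ligase that lowers ERBB3, rose, and Lrig2 (-0.52) fell. Its relatives Lrig1 (0.64, adjusted p = 0.088, edgeR) and Lrig3 (0.09) were not called and did not fall. Fos in 4V Cre-Tat had a mean of 9.09 ± 7.14 CPM (SD, n = 2) and Egr1 one of 14.4 ± 11.5 CPM, so their pools were far apart. In LV Cre-Tat the means were 19.6 ± 9.16 and 27.1 ± 15.7 CPM. Egr1 was also spread in wildtype, at 4.17 ± 4.12 CPM. Between Otx2+/- and wildtype, and between Otx2+/AA and wildtype, edgeR called 0 of 40 and 0 of 39. Errfi1, a feedback inhibitor of EGFR, was higher in Otx2+/- than in Otx2+/AA (0.70), the 1 of 40 called there, beside 2.7% of all genes. It was also higher in LV than in 4V with vehicle (0.64), where 2 of 39 were called, beside 7.44% of all genes. Spry1, another feedback inhibitor of receptor signalling, was also higher in LV (1.19). No pathway gene was called in the interactions. The median log2 fold change of the list lay between -0.01 and 0.13 over the 8 comparisons, beside medians of -0.01 to 0.01 for all genes tested.

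For each called member, the genes most like it over the 14 pools were found by Pearson's r of log2 CPM among about 13439 genes with a mean of at least 1 CPM. The pools share groups, run and depth, so these values describe the pools alone. Tgfa was most like Cldn1 (r = 0.891), Frem1 (0.889) and Zfp606 (0.871). Nrg1 was most like Cyp4f15 (0.939), Ubald1 and Cntnap1 (both 0.925), and Egf most like Fahd2a (0.91), Msto1 (0.868) and Xab2 (0.863). Among the receptors, Erbb4 was most like Frem2 (0.951), Unc13b (0.942) and Vwa8 (0.935), and Egfr most like Igf1 (0.931), Dlg2 and Mxi1 (both 0.924). Cldn1 encodes a tight junction protein, Frem1 and Frem2 encode extracellular matrix proteins, and Igf1 encodes a growth factor.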

How the data were processed

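Choroid plexus RNA was sequenced as 50-base reads. The authors deposited raw counts of reads per Ensembl transcript in 22 files, without normalization. The submitters' processing notes name bcl2fastq 1.8.4, Bowtie 0.12.9, SAMtools, HTSeq 0.5.3 and DESeq 1.8.3 with build mm10, without a role for each. The labels describe ribosomal RNA depletion and stranded libraries, and the paper PolyA+ selection. The counting strand is not given in the sources used here.

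Of 95533 transcripts, 82807 matched GENCODE vM21 (GRCm38) and held 89.5% of the counts, and the 12726 others were left out. For each of the 33984 genes the transcript with the largest sum over the files was used, because a read can be counted on several transcripts. The test was planned for counts per gene, and the transcript counts took their place. The 2 runs of each conditional library were summed, with files assigned by the library number in their names.

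Counts were tested with edgeR 4.0.16 (filterByExpr, TMM, quasi-likelihood F test, limma 3.58.1, R 4.3.3). The p-values were adjusted by Benjamini-Hochberg over the genes tested, and those under 0.05 were called. The standard error is the log2 fold change divided by the root of F, and 95% intervals use the t distribution with the degrees of freedom of the fit. CPM values were scaled by TMM over all 14 pools. DESeq2 1.42.0, other scalings, filters, blocks, sums over transcripts and leaving out each pool were the alternatives. The procedure was also run on simulated counts with the same spread for all genes. That run does not bear on the single calls above. Totals were 22750019 to 50088408 counts a pool, and counting error is only part of the error. LV and 4V were dissected from the same injected mice, and whether equal letters mark the same mice is not given.

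Members, pathway genes and markers were chosen with earlier results of these data known. All members were named, and for each called member the 3 most alike genes. Of the pathway list, at most the 6 largest called genes per comparison were named, with some uncalled genes beside them. Promoters came from the RefSeq table for GRCm38.p6, which held 7 of the 10 members.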

Additional observations from a re-analysis of the deposited data

Results flagged for a closer look

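The change of Tgfa in 4V ChP differed between the models by a test of the difference itself. The change from wildtype to Otx2+/- minus the change from vehicle to Cre-Tat was 1.13 ± 0.23 (SE) on the log2 scale (adjusted p = 0.026, edgeR). The call was lost without any one of 5 of the 8 pools, with adjusted p of 0.073 to 0.12 (edgeR), was at 0.05 without wildtype pool B, and was lost with sums over transcripts (adjusted p = 0.064, edgeR). Tgfa was lower in both Cre-Tat pools than in both vehicle pools, and higher in both Otx2+/- pools than in both wildtype pools. Model, strain and sequencing run cannot be told apart here.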

How the results depend on the processing

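Where 1 pool was left out, 1 group was left with a single pool. The number of members called then varied in LV Cre-Tat, 4V Cre-Tat, Otx2+/- against wildtype, Otx2+/- against Otx2+/AA, LV against 4V and the model interaction. The share of all genes called varied too, so these counts are not results about the members. Without 1 pool the log2 fold change in Otx2+/AA against wildtype ran from -0.17 to 0.04 for Tgfa and from -0.19 to 0.38 for Egfr. The ventricle interaction ran from -0.07 to 0.28 for Tgfa, -4.51 to 1.34 for Nrg1, with the lowest where LV vehicle is left with a pool at 0 counts, and -0.23 to 0.1 for Erbb4. The model interaction of Nrg1 ran from -0.91 to 0.27.

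DESeq2 called 2 members in LV Cre-Tat, 1 in 4V Cre-Tat, 3 in Otx2+/- against wildtype, 2 in Otx2+/- against Otx2+/AA and 2 in the model interaction, beside 3.58%, 7.9%, 4.82%, 2.85% and 2.72% of all genes. Total counts in place of TMM gave 1, 1, 3 and 2 in the first 4 of these, beside 2.96%, 12%, 3.64% and 3.27% of all genes. They turned Tgfa to 0.05 in Otx2+/AA against wildtype and to -0.07 in LV against 4V. This scaling brought the median of all genes to 0.174 in LV Cre-Tat. No filter on low counts gave 1 in LV Cre-Tat, 3 in 4V Cre-Tat (Tgfa, Nrg1, Erbb4) and 2 in the model interaction. The shares of all genes were 4.01%, 8.75% and 2.56%. All groups of a run in 1 fit gave 2 in LV Cre-Tat, 1 in 4V Cre-Tat, 2 in Otx2+/- against wildtype and 1 in LV against 4V. The shares of all genes were 3.82%, 7.34%, 4.01% and 4.61%. Nrg1 was the member lost in 4V Cre-Tat with DESeq2, with all groups in 1 fit and with sums over transcripts. Sums over transcripts gave 1 in 4V Cre-Tat, 0 in Otx2+/- against Otx2+/AA and 0 in the model interaction. The shares of all genes were 8.07%, 1.64% and 1.04%. The cause of these changes was not tested.

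Whether equal letters mark paired pools is not given, so the letters were not taken as pairs. Correlations of deviations over genes were -0.13 to 0.36, and with 2 pairs each they cannot show whether pools are paired. With the letter as a replicate block, 4 members were called in Otx2+/- against wildtype (Tgfa, Egf, Nrg1, Egfr), 3 in 4V Cre-Tat (Tgfa, Nrg1, Erbb4) and 3 in the model interaction. Over all genes the block raised the calls from 515 to 2539, from 1554 to 3114 and from 252 to 1048. Letters crossed in LV, an alternative chosen after seeing the data, gave 3 as a replicate block, and 1012 in place of 486 over all genes.

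With files as attached, which mixes libraries labelled Cre-Tat and vehicle within each pool and counts them as replicates, 3 members were called in LV Cre-Tat, 6 in 4V Cre-Tat, 5 in LV against 4V, 2 in the ventricle interaction and 4 in the model interaction. Over all genes the shares called were 44.9%, 58.8%, 32.6%, 34.2% and 30.4%. In LV Cre-Tat, Tgfa was then 0.08, Btc 1.39, Nrg1 -0.87 and Egfr -0.49. In 4V Cre-Tat, Tgfa was 0.12, Nrg1 -2.26 and Egfr -0.81. Tgfa was -0.14 in LV against 4V, and Nrg1 was -1.38 in the ventricle interaction and 3.86 in the model interaction.

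Depth limits Areg, Btc and Nrg1, whose pools held at most 2, 31 and 51 counts.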
